A study of Mus musculus with 6 samples.

Results

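The TGF-beta ligands, receptors and latent binders are a group of 10 genes, Tgfb1, Tgfb2, Tgfb3, Tgfbr1, Tgfbr2, Tgfbr3, Ltbp1, Ltbp2, Ltbp3 and Ltbp4. They were followed through every array probe set whose only gene symbol was one of these names, which gave 24 of the 45037 probe sets measured. All 10 genes had at least 1 probe set. The samples were PICs, which are PW1-expressing interstitial cells, and satellite cells, the stem cells of muscle fibres. Both were sorted by flow cytometry, using CD34 and Sca1, out of enzyme-treated hindlimb muscle. The mice were C57 black 6 animals 7 to 9 days old, and the labels name no genetic change or treatment in either population. Each population had 3 arrays, called biological replicates in the labels, and whether a number marks 1 animal, a pool or a shared preparation is not given in the sources used here.

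TGF-beta is secreted in a latent form, in which the growth factor stays bound to its own propeptide. Latent TGF-beta binding proteins, encoded by the Ltbp genes, tie this complex to fibrillin microfibrils and fibronectin in the matrix, from where integrins, proteases and thrombospondin can release the factor. Released TGF-beta binds the type 2 receptor, which recruits and phosphorylates the type 1 receptor, and the type 3 receptor betaglycan presents ligand to the pair. In muscle TGF-beta is known to restrain myoblast differentiation and fusion and to promote matrix production by interstitial cells.

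Array values were linear GCRMA intensities, a background-corrected and quantile-normalised measure with no absolute unit. The median intensity was 10 on every array, and probe sets at 16 or below (4 on the log2 scale) were treated as having no measured level. Levels of different probe sets are not comparable with each other. Differences are given as log2 of PICs minus satellite cells. A probe set was called when limma gave an adjusted p under 0.05 and the difference was at least 1, that is at least 2-fold.

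The labels of the populations were first set against marker genes. All 12 tested markers of myogenic progenitors were lower in PICs, with a median difference of -4.58. All 12 tested markers of fibro-adipogenic progenitors were higher in PICs, with a median of 3.97. Cd34 is among the latter, and CD34 was used in the sort. Clec3b, also among them, read 10, 7 and 7 on the satellite arrays. It passed the filter on low values (above 16 on at least 3 of 6 arrays) only through PICs. Osr1 read 14, 6 and 20 on the satellite arrays and Pi16 read 139, 10 and 15, so both also needed the PIC arrays to pass. The marker lists were written with earlier results of these arrays known, so these counts are no independent check of the labels. The background over all 10855 genes tested was 16.7% called higher and 13.0% called lower. Of 12 endothelial markers 0 were called by limma, and 0 had an unadjusted p under 0.05. Their summed intensity was 8765, 6461 and 2501 in PIC replicates 1, 2 and 3, against 6476, 4890 and 4483 in satellite replicates 1, 2 and 3, so PIC replicate 3 was lowest. Of 12 haematopoietic markers 6 were tested and 0 were called, with 0 at an unadjusted p under 0.05. Their summed intensity was 3082 and 4010 on the PIC and satellite arrays numbered 1, and between 149 and 377 on the other arrays. Schwann and glial markers moved with the populations, with 3 of 5 tested higher in PICs, 0 lower by limma (0 at an unadjusted p under 0.05) and a median difference of 1.90. Their summed intensity lay between 1955 and 2404 in PICs, against 297 to 426 in satellite cells. Foxd3 was at the low value level on every array. Cdh19, 1 of the 3 called, read 10, 9 and 8 on the satellite arrays and passed the filter only through PICs. Muscle fibre markers were divided, with 5 of 11 tested higher in PICs and 4 lower. The 5 became 0 to 2 without PIC replicate 1, 2 or 3 or satellite replicate 2 or 3. They became 0 without both arrays numbered 3 and also without the filter on low values. Pericyte and smooth muscle markers gave 2 of 10 higher and 3 lower, tendon markers 1 of 5 higher and 1 lower, and platelet markers 1 of 3 higher and 0 lower (0 at an unadjusted p under 0.05). The called platelet marker Itga2b read 16, 8 and 18 on the satellite arrays, and the called fibre marker Myh4 read 28, 16 and 10. Both needed the PIC arrays to pass the filter. Without PIC replicate 3, 1 endothelial marker was called higher in PICs. The single calls of tendon markers (lower) and platelet markers (higher) were lost without both arrays numbered 3. Both were also lost without the filter on low values and with a stricter filter. The tendon call was lost too with an offset of 16 or array weights, and the platelet call without PIC replicate 2. The part of these other cell types in the differences below was not tested. In sorted populations a lower share of cells that express a gene and less RNA per cell cannot be told apart.

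Transcripts of 2 of the 3 receptor genes were higher in PICs, and ligand transcripts were not called in either direction. Tgfbr2 was 3.60-fold and Tgfbr3 2.60-fold higher in PICs, and Ltbp4 was 2.59-fold higher but with overlap between the populations. Of the 24 probe sets, 15 passed the filter on low values, and they covered 8 genes. Tgfb1 and Ltbp2 had no probe set that passed. Of the 15 tested, 4 were called, and all 4 were higher in PICs, where 14.5% of all 20606 probe sets tested were called higher. By limma 0 were called lower, where the background was 12.5%, and 1 lower one had an unadjusted p under 0.05. Over both directions the 4 calls are 26.7% of those tested, against 27.0% of all probe sets, so the total share was near the background. The 3 arrays of one population lay wholly above those of the other in 9 of the 15, against 58.9% of all probe sets. PICs were the higher population in 6 of these, where the background was 26.8%, and the lower one in 3, where it was 32.1%. An adjusted p under 0.05 at any size was found for 8 of the 15, against 48.4% of all probe sets. The median difference of the 15 was 0.56, and that of all probe sets tested was -0.08.

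**Figure D1:**
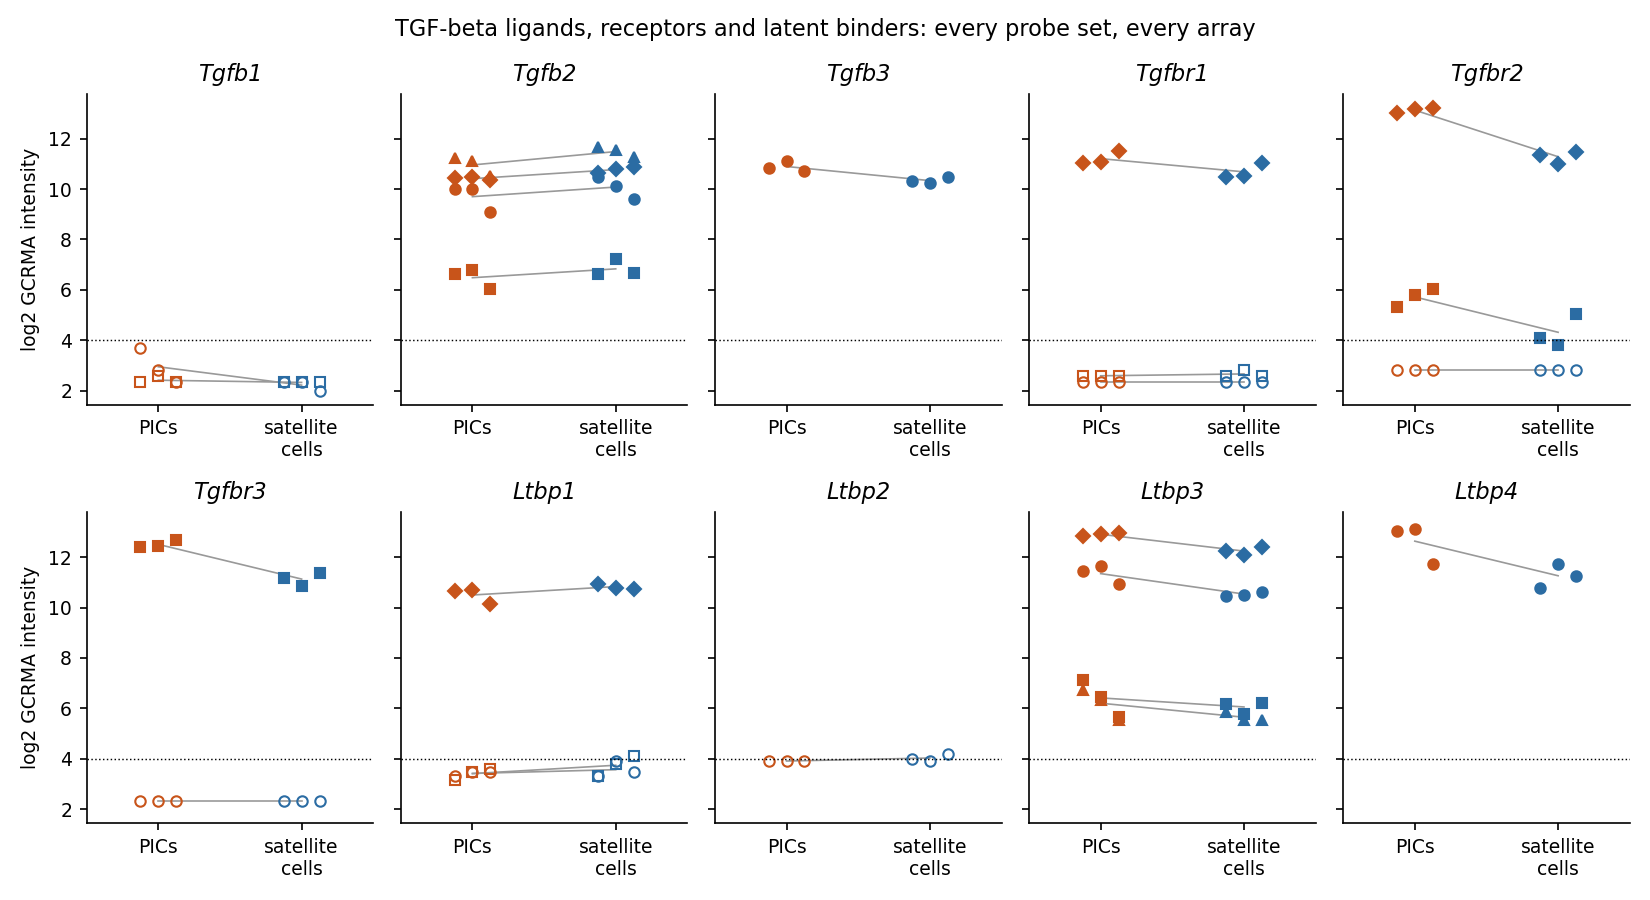
Log2 GCRMA intensity of all 24 probe sets of the 10 genes, 1 panel per gene and 1 symbol shape per probe set within a panel. Orange points are the 3 PIC arrays and blue points the 3 satellite arrays, in replicate order; open symbols did not pass the filter, grey lines join the population means, and the dotted line is the low value level of 4. Tgfbr2 and Tgfbr3 part cleanly at high levels, and both Tgfb1 probe sets stay under the line on every array.

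The ligand genes gave 7 probe sets, of which 5 passed the filter and 0 were called, where 27.0% of all probe sets tested were called. Tgfb1 encodes the ligand best known from platelets and immune cells. Its first probe set (1420653_at) read 13, 7 and 5 on the PIC arrays, against 5, 5 and 4 on the satellite arrays. The other (1445360_at) read 5, 6 and 5 on the PIC arrays, against 5 on each satellite array. Both therefore lay at the low value level on all 6 arrays, and no level of Tgfb1 was measured in either population. The highest of these readings, 13, was on the PIC array numbered 1. That array also carried a haematopoietic marker sum of 3082, but the satellite array with a sum of 4010 read 5, and the part of blood cells in this reading was not tested.

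Tgfb2, a ligand known for its roles in heart, eye and skeletal development, had 4 probe sets, and each was lower on average in PICs without being called. Probe set 1450923_at read 2427, 2218 and 1466 on the PIC arrays, against 3265, 2978 and 2453 on the satellite arrays. All PIC values were below all satellite values, and the difference was -0.53 (95% interval -1.09 to 0.02, limma, adjusted p = 0.101). With the replicate number as a block its adjusted p was 0.0186, with differences within equal numbers of -0.43, -0.43 and -0.74, and the size stayed below 2-fold. Probe set 1450922_a_at read 1373, 1412 and 1308 on the PIC arrays, against 1615, 1766 and 1888 on the satellite arrays. These groups did not overlap either, and the difference of -0.36 had an adjusted p of 0.0388 (limma, SE 0.11), below the 2-fold size. The remaining probe sets overlapped between the populations. Probe set 1423250_a_at read 1013, 1036 and 548 on the PIC arrays, against 1430, 1129 and 788 on the satellite arrays, with a difference of -0.38 (95% interval -1.19 to 0.43). Probe set 1438303_at read 99, 109 and 66 on the PIC arrays, against 99, 148 and 101 on the satellite arrays, with a difference of -0.35 (95% interval -0.97 to 0.27). The PIC array numbered 3 was the lowest of its population on all 4 probe sets. The summed intensity of 10 pericyte and smooth muscle markers was also lowest there among PIC arrays. It was 27860, 21369 and 13222 in PIC replicates 1, 2 and 3, against 36229, 32310 and 33537 in satellite replicates 1, 2 and 3. Acta2 alone gave 6911, 3801 and 2766 of the PIC sums and 20566, 20972 and 19289 of the satellite sums. Such sums follow their brightest genes most and do not measure a share of cells. All other cell type marker sums except that of muscle fibre markers were also lowest among PIC arrays on replicate 3. On the satellite arrays the pericyte sum was lowest on replicate 2, where no Tgfb2 probe set was lowest. The part of these cell types in the Tgfb2 values was not tested.

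Tgfb3, a ligand known for palate and tendon development, ran the other way from Tgfb2. Its single probe set read 1855, 2245 and 1666 on the PIC arrays, against 1272, 1202 and 1415 on the satellite arrays. All PIC values were above all satellite values. The difference was 0.56 ± 0.15 (SE, n = 3 each; limma, adjusted p = 0.0237), a 1.47-fold higher mean that stayed below the 2-fold size. Without any 1 array the adjusted p lay between 0.0174 and 0.0862. A difference of 2-fold lay outside its 95% interval, which ran from 1.14-fold to 1.90-fold.

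The receptor genes gave 8 probe sets. Of these 4 passed the filter, 3 were called higher in PICs and 0 were called lower. The backgrounds over all probe sets tested were 14.5% and 12.5%. Of the 3 calls, 2 were probe sets of the same gene, Tgfbr2. The difference of all 4 tested was above 0. Tgfbr2 encodes the type 2 receptor, the subunit that binds free ligand. On its brightest probe set (1426397_at) it read 8239, 9175 and 9642 on the PIC arrays, against 2637, 2062 and 2865 on the satellite arrays. Every PIC array was well above every satellite array. The log2 level was 13.14 ± 0.12 in PICs, against 11.29 ± 0.25 in satellite cells (SD, n = 3 each), a 3.60-fold difference (limma, adjusted p = 0.000379). The 95% interval ran from 2.75-fold to 4.72-fold, and the call held under all 15 alternative settings and omissions tried. Within equal replicate numbers the log2 difference was 1.64, 2.15 and 1.75.

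A second Tgfbr2 probe set (1425444_a_at) lay near the low value level and moved the same way. It read 40, 56 and 65 on the PIC arrays, against 17, 14 and 33 on the satellite arrays. The difference was 1.40 ± 0.36 (SE, n = 3 each; limma, adjusted p = 0.020). Without 1 array it was called in 2 of 6 omissions, and its adjusted p reached 0.0675. It was not called without PIC replicate 2 or 3 or without satellite replicate 1 or 2. The same held when no probe set was filtered out (adjusted p = 0.107), without both arrays numbered 1 (0.0870) and with an offset of 16, which gave a difference of 0.92. The remaining Tgfbr2 probe set (1422019_at) read 7 on all 6 arrays. A gene with readings of 2062 or more on one probe set on every array was thus at the low level on another.

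Tgfbr3 encodes betaglycan, the membrane proteoglycan that holds ligand for the signalling receptors and is known to matter most for Tgfb2, which binds the type 2 receptor weakly alone. Its probe set 1433795_at read 5460, 5511 and 6602 on the PIC arrays, against 2312, 1859 and 2638 on the satellite arrays. The populations were fully apart. The log2 level was 12.51 ± 0.15 in PICs, against 11.13 ± 0.25 in satellite cells (SD, n = 3 each), a 2.60-fold difference (limma, adjusted p = 0.00117). The call held under all 15 alternative settings and omissions, with differences of at least 1.24. The other Tgfbr3 probe set (1425620_at) read 5 on all 6 arrays.

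Tgfbr1 encodes the type 1 receptor, the kinase that phosphorylates Smad2 and Smad3. Its only probe set above the low level (1420895_at) read 2086, 2171 and 2932 on the PIC arrays, against 1428, 1488 and 2099 on the satellite arrays. The groups overlapped by 1 array, since satellite replicate 3 exceeded PIC replicate 1. The difference was 0.52 (95% interval 0.01 to 1.04, limma, adjusted p = 0.0874), and Tgfbr1 was not called. With the replicate number as a block the adjusted p was 0.0103, the difference within equal numbers being 0.55, 0.55 and 0.48, but the size stayed below 2-fold. The other Tgfbr1 probe sets read 5 on every array and 6 or 7 on every array. The intervals of Tgfbr1 and of the brightest Tgfbr2 probe set did not overlap, at 0.01 to 1.04 and 1.46 to 2.24, although that gap between genes was not itself tested.

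**Figure D2:**
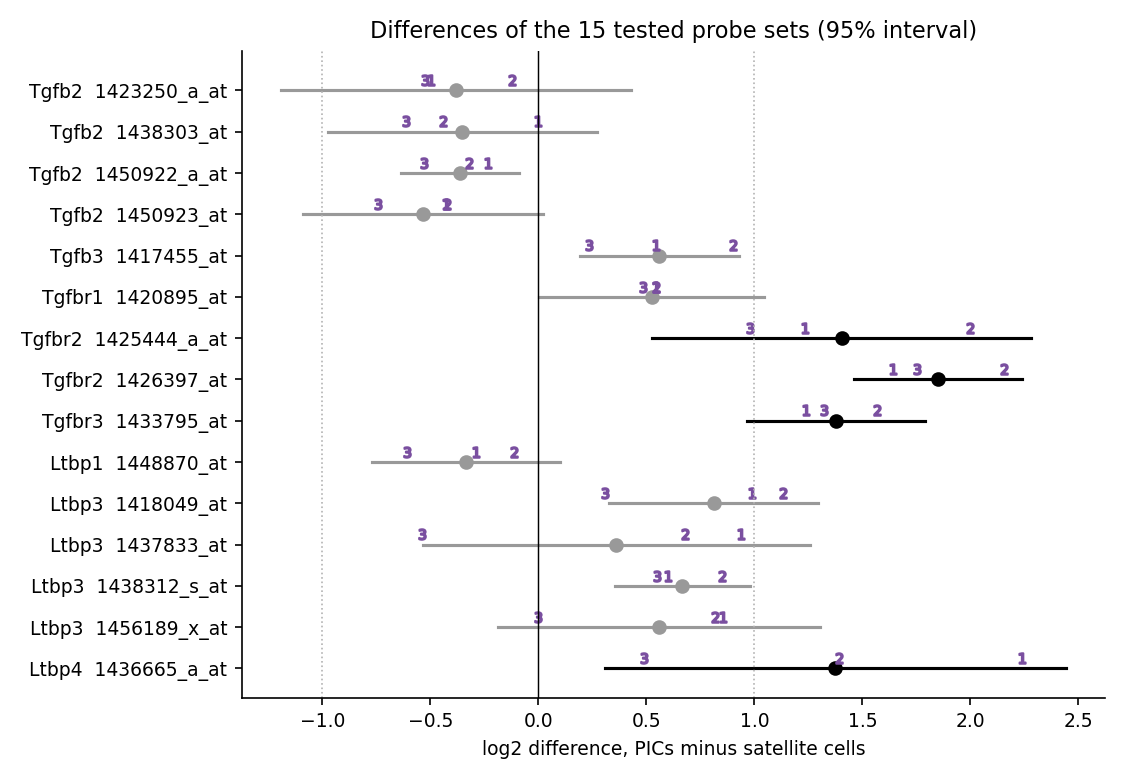
Log2 difference, PICs minus satellite cells, of the 15 tested probe sets. Dots are limma estimates with 95% intervals, black where called and grey where not; the small digits are the differences between arrays of equal replicate number, and dotted lines mark 2-fold. Both Tgfbr2 probe sets, Tgfbr3 and Ltbp4 were called, while all 4 Tgfb2 probe sets and Ltbp1 lie left of 0.

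The latent binder genes gave 9 probe sets, of which 6 passed the filter and 1 was called, where the background was 27.0%. Ltbp4, which is known in mice for elastic fibre assembly and as a modifier of muscular dystrophy, was the called one. It read 8373, 9025 and 3432 on the PIC arrays, against 1773, 3435 and 2445 on the satellite arrays. PIC replicate 3 lay marginally below satellite replicate 2, so the populations overlapped. The log2 level was 12.64 ± 0.78 in PICs, against 11.26 ± 0.48 in satellite cells (SD, n = 3 each), a difference of 1.37 (95% interval 0.31 to 2.44, limma, adjusted p = 0.0420). Within equal replicate numbers the difference was 2.24, 1.39 and 0.49, so it was above 0 in 3 of 3 pairs and smallest at number 3.

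The Ltbp4 call rested on the arrays and probe sets included. Without the filter on low values it was not called (adjusted p = 0.187). Without PIC replicate 3 it was called at 1.82 (adjusted p = 0.00630), and without any 1 of the other 5 arrays it was not called, with differences of 1.12 to 1.61 and adjusted p values of 0.0538 to 0.129. Without both arrays numbered 1 the difference was 0.94 (adjusted p = 0.265), and without both numbered 3 it was 1.82 (adjusted p = 0.0209). These values were adjusted over probe sets. Adjusted over genes, with 1 probe set per gene, Ltbp4 was also called without satellite replicate 2 (limma, adjusted p = 0.0384). In PICs the Ltbp4 reading and the endothelial marker sum were both lowest on replicate 3. All other cell type marker sums except that of muscle fibre markers were also lowest there. On the satellite arrays Ltbp4 was highest on replicate 2 and the endothelial sum on replicate 1. The part of endothelial cells in the Ltbp4 values was not tested.

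**Figure D3:**
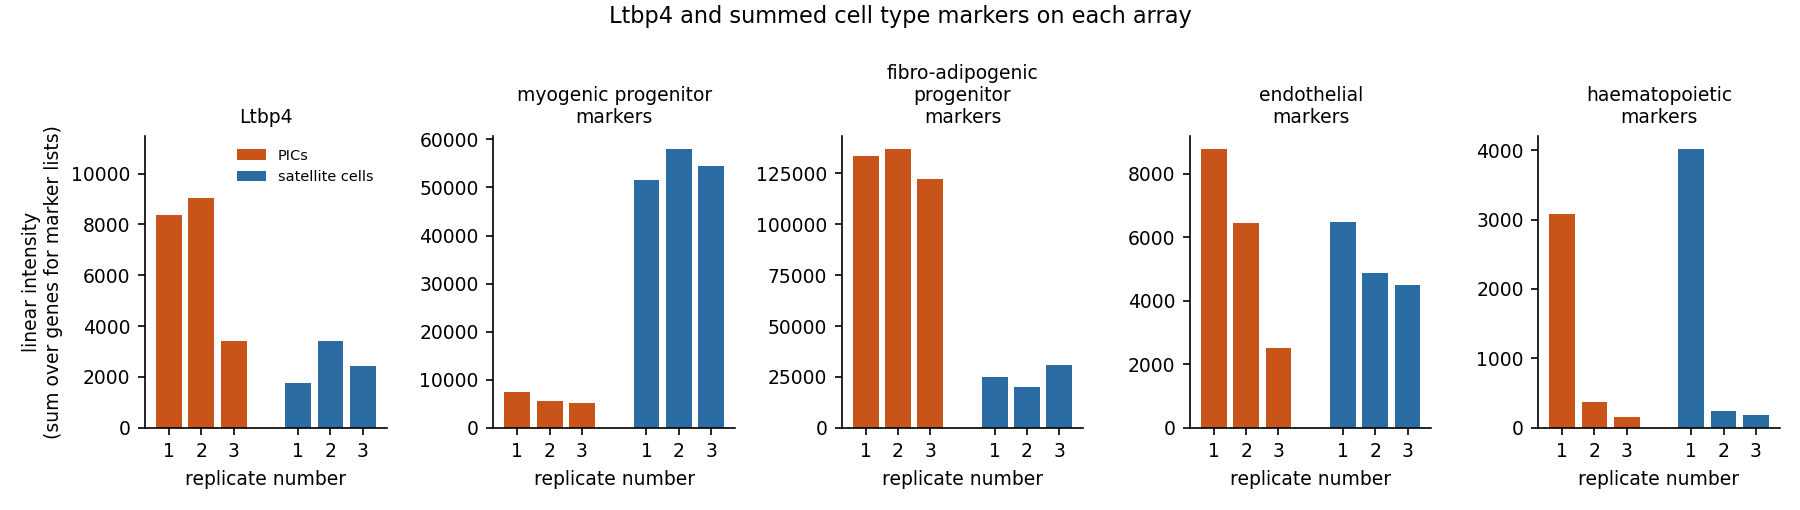
Linear GCRMA intensity of Ltbp4 and summed intensity of 12 marker genes for each of 4 cell types, by array, with PICs in orange and satellite cells in blue and the replicate number below each bar. Ltbp4 and the endothelial sum were lowest among PIC arrays on replicate 3 (3432 and 2501), as were the other marker sums shown. The haematopoietic sum was high only on both arrays numbered 1 (3082 and 4010).

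Ltbp3, a latent binder known in mice for bone and tooth growth, had 4 probe sets, and all 4 averaged higher in PICs without being called. Probe set 1438312_s_at read 7315, 7817 and 8003 on the PIC arrays, against 4831, 4330 and 5463 on the satellite arrays. The populations were apart, and the difference was 0.67 ± 0.13 (SE, n = 3 each; limma, adjusted p = 0.00654). Probe set 1418049_at read 2823, 3185 and 1975 on the PIC arrays, against 1421, 1451 and 1594 on the satellite arrays, again without overlap. Its difference was 0.81 ± 0.20 (SE, n = 3 each; limma, adjusted p = 0.0165), and it passed 2-fold with array weights (1.09), without PIC replicate 3 (1.01) and without both arrays numbered 3 (1.06). The remaining probe sets were dimmer and overlapped. Probe set 1437833_at read 138, 88 and 51 on the PIC arrays, against 72, 55 and 74 on the satellite arrays, and 1456189_x_at read 105, 81 and 47 on the PIC arrays, against 58, 46 and 47 on the satellite arrays. Their differences of 0.36 and 0.56 had intervals that crossed 0, from -0.54 to 1.26 and from -0.19 to 1.30. On 1437833_at the arrays numbered 3 differed by -0.54, against 0.94 and 0.68 at numbers 1 and 2.

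Ltbp1, the founding member of the latent binder family, was measured on 1 of its 3 probe sets. Probe set 1448870_at read 1624, 1646 and 1136 on the PIC arrays, against 1984, 1779 and 1731 on the satellite arrays. All PIC values were below all satellite values, but the difference of -0.34 was not called (95% interval -0.77 to 0.10, limma, adjusted p = 0.169). A 2-fold difference in either direction lay outside that interval. The other Ltbp1 probe sets read between 9 and 12 on the PIC arrays and between 10 and 17 on the satellite arrays, around the low value level. Ltbp2, a microfibril protein that is known not to bind latent TGF-beta, read 15 on each PIC array, against 16, 15 and 18 on the satellite arrays, so no difference could be measured at that level.

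Promoter sequences from RefSeq (build GRCm38.p6) are shown for Tgfbr2 and for Ltbp4 at 2 of its 3 listed starts, as called genes with an entry in the table used, and for Tgfb2, the ligand that averaged lower in PICs on each probe set. Of the 10 genes, 8 had an entry. Each window holds 300 bases, from upstream of the transcript start to just past it. Capitals mark 3 short motifs searched on both strands, the GC box GGGCGG, the E-box CANNTG and the TATA box TATAAA.
Tgfbr2 (chr9:116175314-116175613, minus strand): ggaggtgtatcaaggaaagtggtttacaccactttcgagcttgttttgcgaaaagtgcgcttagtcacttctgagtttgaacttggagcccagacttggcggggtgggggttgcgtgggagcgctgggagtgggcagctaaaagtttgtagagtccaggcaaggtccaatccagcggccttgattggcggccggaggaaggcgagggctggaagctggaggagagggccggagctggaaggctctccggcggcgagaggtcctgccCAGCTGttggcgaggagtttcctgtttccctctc
Ltbp4, upstream start (chr7:27337563-27337862, minus strand): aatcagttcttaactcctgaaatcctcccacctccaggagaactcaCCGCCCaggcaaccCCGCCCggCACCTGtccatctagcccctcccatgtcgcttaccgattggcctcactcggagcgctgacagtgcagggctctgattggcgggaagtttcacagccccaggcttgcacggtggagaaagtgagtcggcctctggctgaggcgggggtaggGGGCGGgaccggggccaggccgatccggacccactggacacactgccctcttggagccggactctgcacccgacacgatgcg
Ltbp4, downstream start (chr7:27333599-27333898, minus strand): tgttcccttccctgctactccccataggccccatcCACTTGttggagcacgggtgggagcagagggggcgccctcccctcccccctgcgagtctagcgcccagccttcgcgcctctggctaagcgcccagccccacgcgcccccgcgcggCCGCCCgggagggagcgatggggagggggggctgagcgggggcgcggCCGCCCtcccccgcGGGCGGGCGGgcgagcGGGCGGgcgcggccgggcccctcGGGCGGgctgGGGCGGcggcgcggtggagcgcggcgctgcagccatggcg
Tgfb2 (chr1:186705940-186706239, minus strand): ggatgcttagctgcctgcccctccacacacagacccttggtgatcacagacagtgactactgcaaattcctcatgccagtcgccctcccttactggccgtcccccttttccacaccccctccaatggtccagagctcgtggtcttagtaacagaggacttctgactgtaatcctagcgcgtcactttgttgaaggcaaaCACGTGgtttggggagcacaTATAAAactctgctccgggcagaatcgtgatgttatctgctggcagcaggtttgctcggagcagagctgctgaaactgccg

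The Tgfbr2 window held 1 E-box, no GC box and no TATA box, with 59.0% G and C. The upstream Ltbp4 window held 3 GC boxes and 1 E-box, and the downstream one 7 GC boxes and 1 E-box, with 64.3% and 80.3% G and C. At the downstream start 1 pair of GC boxes shared 2 bases. The Tgfb2 window held 1 TATA box and 1 E-box, with 54.3% G and C. Among all 32851 promoter windows of this length, 35.7% held the GC box, 72.3% the E-box and 13.6% the TATA box. The called genes Tgfbr2 and Ltbp4 thus had promoters of unlike composition, and a match of letters does not show that a factor binds.

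The wider pathway was followed through 4 lists of genes with 1 probe set per gene. These lists were written with earlier results of these arrays known. On that scale the ligands, receptors and latent binders had 8 tested genes. Of these, 3 were called higher and 0 lower in PICs, where 16.7% and 13.0% of all genes tested were called. The median difference was 0.61, against -0.04 for all genes. None of the 8 was lower at an unadjusted p under 0.05 by limma on these probe sets. Ltbp4, 1 of the 3, was not called on this scale without the filter on low values (limma, adjusted p = 0.130). It was also not called without PIC replicate 1 or 2 or satellite replicate 1 or 3.

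Genes that store latent TGF-beta in the matrix or release it were higher in PICs in 12 of 18 tested and lower in 0 by limma, with 0 lower at an unadjusted p under 0.05. The median difference was 1.65, against -0.04 for all genes, and 66.7% were called higher against the background of 16.7%. Itgb3, the integrin subunit that pairs with the alpha-v chain, read 496, 528 and 529 on the PIC arrays, against 21, 7 and 13 on the satellite arrays. It was called at 5.38 (limma, adjusted p = 0.000106), with satellite arrays around the low value level, so its size is uncertain. Itgb3 needed the PIC arrays to pass the filter on low values, which favoured its direction, and it is 1 of the 12. Adamtsl2, a microfibril-associated protein that binds latent TGF-beta binding proteins, had no measured level on the satellite arrays and was at least 18.6-fold higher in PICs. It passed the filter on low values only through the PIC arrays, so passing fixed its direction, and it is 1 of the 12. Plat, tissue plasminogen activator, was 10.5-fold higher, and Fbn2, the fibrillin of developing microfibrils, was 8.23-fold higher (limma, adjusted p = 0.000286 and 0.000223).

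Accessory receptors and secreted binders of TGF-beta were higher in PICs in 8 of 11 tested, or 72.7%, and lower in 0 by limma, with 1 lower at an unadjusted p under 0.05. The backgrounds over all genes were 16.7% higher and 13.0% lower. The median difference was 1.97. Vasn, a membrane protein whose shed form binds TGF-beta, had a log2 level of 11.06 ± 0.34 in PICs, against 8.29 ± 0.62 in satellite cells (SD, n = 3 each), a difference of 2.77 (limma, adjusted p = 0.000678). Aspn, a matrix proteoglycan that binds TGF-beta, differed by 2.74. Nrp1, a co-receptor of several growth factors, differed by 2.65, and Acvrl1, an alternative type 1 receptor best known from endothelium, by 2.33. Of these 11 genes, Dcn also stands among the fibro-adipogenic markers and Fmod among the tendon markers.

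Intracellular mediators and their regulators were called in both directions. Of 24 tested, 2 were higher in PICs, or 8.33% against a background of 16.7%, and 3 were lower, or 12.5% against 13.0%. The median difference was 0.06. With an offset of 16, without PIC replicate 3 or without satellite replicate 1 or 2, 1 was higher instead of 2. Dab2, an adaptor of receptor trafficking, was 5.67-fold higher in PICs, and Wwp1, a ubiquitin ligase, was 2.04-fold higher. Nedd4l, a ubiquitin ligase that acts on activated Smad2 and Smad3, was lower in PICs at 8.53 ± 0.21, against 10.94 ± 0.16 in satellite cells (SD, n = 3 each; difference -2.41, limma, adjusted p = 8.45e-05). The Smad corepressors Tgif2 and Tgif1 were lower in PICs by limma, with differences of -1.57 and -1.55 and adjusted p values of 0.00400 and 0.0246.

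Textbook TGF-beta target genes were called higher in PICs in 9 of 22 tested and lower in 2. These shares are 40.9% and 9.09%, against backgrounds of 16.7% and 13.0% over all genes. At an unadjusted p under 0.05 by limma, 13 were higher and 4 were lower. The median difference was 0.76. Tgfbi, the matrix protein named for its induction by TGF-beta, was 7.37-fold higher in PICs, and the collagen crosslinking enzyme gene Lox was 6.20-fold higher. Nox4, an oxidase, differed by 2.22, and Tgfb1i1, a focal adhesion adaptor, by 2.11. The cell cycle inhibitor gene Cdkn1a and the smooth muscle actin gene Acta2 were lower in PICs, by limma differences of -2.42 and -2.28 (adjusted p = 0.000409 and 0.00127). With the replicate block 4 targets were lower in PICs instead of 2. Acta2 also stands among the pericyte markers, and it read 6911, 3801 and 2766 on the PIC arrays, against 20566, 20972 and 19289 on the satellite arrays.

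**Figure D4:**
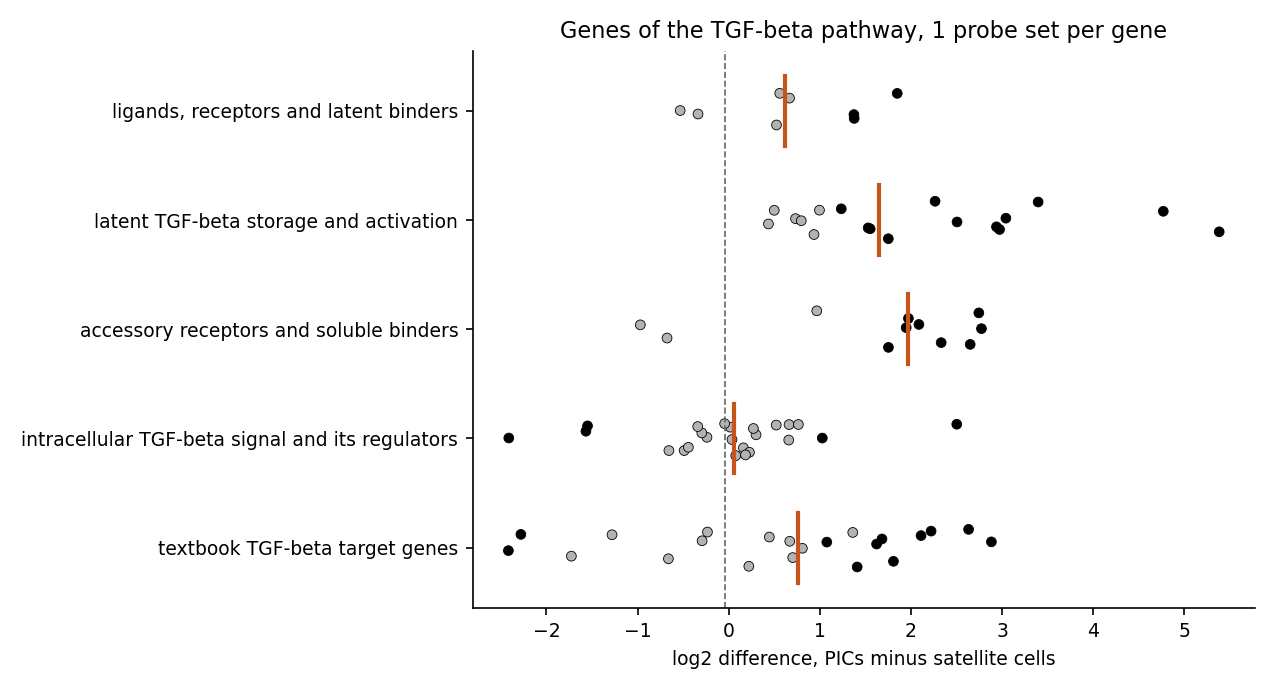
Log2 difference, PICs minus satellite cells, of each tested gene in the 10-gene group and the 4 wider lists, 1 probe set per gene; black points were called, grey points were not. Orange bars are list medians (0.61, 1.65, 1.97, 0.06 and 0.76 from top to bottom) and the dashed line is the median of all genes, -0.04. Storage, activation and binder genes lie mostly right of the line, and the intracellular genes centre on it.

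Tgfbr2 was the called gene of the 10 with the largest difference, and 0 of the 10 were called lower. The genes outside the group whose centred log2 values over the 6 arrays lay closest to its own were Fn1 (Euclidean distance 0.16), Rab43 (0.17) and Serping1 (0.18). Their differences were 1.75, 1.85 and 1.82. This is a likeness over 6 arrays of 2 populations and carries no test.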

How the data were processed

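Gene expression was measured on 6 Affymetrix 1-colour arrays, 3 of PICs and 3 of satellite cells, from 200 ng of total RNA each, per the labels' protocols. The deposited values are linear intensity values made by the authors with GCRMA, per the submitters' processing notes; its version is not given in the sources used here. All values (100%) are whole numbers, so steps at low levels are coarse. They were taken to log2. No detection call or scan date was used. Gene names came from the platform annotation, and all 24 of the group matched RefSeq by gene number.

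Probe sets above 4 on the log2 scale on at least 3 of 6 arrays were tested with limma 3.58.1 in R 4.3.3 (two-sided, no trend), with Benjamini-Hochberg adjustment over all 20606. Gene lists used, for each gene, its brightest tested probe set on average, adjusted over 10855 genes. With 3 arrays against 3, an exact permutation test cannot go below 0.1, so none was run. P-values measure the spread between these arrays only.

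Samples of equal replicate number deviated together: correlations of deviations across genes were 0.623, 0.222 and 0.579, against -0.568 to 0.0363 for unequal numbers. Deviations were taken from the mean of each population, so within a population they cancel out. Positive values at equal numbers therefore push those at unequal numbers down, and the latter are no independent comparison. The pairing comes from the data, not the labels. Members and lists were chosen with earlier results of these data known. The text names every probe set of the 10 genes and up to 4 called genes of largest difference per list and direction. It also names the 3 genes nearest in pattern to the called gene of largest difference. Dcn and Fmod are named only for standing on several lists. Among cell type markers, Cd34 is named for the sort, and Clec3b, Osr1, Pi16, Cdh19, Foxd3, Itga2b and Myh4 for the low value level. Alternatives were no filter, a stricter filter (above 6), an offset of 16, the replicate block, a variance trend, array weights, probe sets with 1 symbol only, the mean of a gene's probe sets, and each array left out. Leaving out both arrays numbered 1, or both numbered 3, was added without being planned.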

Additional observations from a re-analysis of the deposited data

How the results depend on the processing

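Of 223 recomputed differences of the tested probe sets over 15 alternatives, 206 kept their direction and side of the threshold, 14 lost the call, 3 gained it and 0 reversed. The number of probe sets called higher in PICs was 4, and it was 2 without the filter on low values, where Ltbp4 (adjusted p = 0.187) and the dim Tgfbr2 probe set (adjusted p = 0.107) were not called. Leaving out 1 array at a time gave 2 to 4. Without both arrays numbered 1, an alternative chosen after seeing the data because blood cell markers were highest there, it was 2. Without both numbered 3, also an unplanned alternative, it was 5. The dim Tgfbr2 probe set fell below 2-fold with an offset of 16 (0.92) and did not pass the stricter filter. With the replicate block 4 probe sets were called higher and 0 lower, and the block changed no call among the 15 probe sets. Among targets, calls lower in PICs numbered 4 with the block and 4 with array weights, against 2. Dim probe sets limit what can be said of Tgfb1 and Ltbp2: both lay at the low value level, and Tgfbr1, Tgfbr2, Tgfbr3 and Ltbp1 each also had a probe set at that level beside a bright one, so a low reading does not show that a transcript was absent. The cause of these changes was not tested.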
